A study of Mus musculus with 6 samples.

Results

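The heat-shock genes examined here are Hsf1, which encodes the master transcription factor of the heat-shock response, and 9 chaperone genes of the cytosol and mitochondria: Hspa1a, Hspa1b, Hspa2, Hspa8, Hsp90aa1, Hsp90ab1, Hsph1, Dnajb1 and Hspd1. They were picked by gene symbol, and all 10 were found among the 17469 genes of the count table. RNA-seq was performed on tdTomato+ cells, described as OB (osteoblast) progenitors, which were sorted by FACS from cultured BMSCs, adherent cells grown from bone marrow. The control mice were OCN-Cre;Ai9, and the mutant mice were TgAPPsweOCN;Ai9 (TgAPPswe;Ocn-Cre;Ai9), with 3 libraries of each genotype. All mice were 6 months old and untreated, and both genotypes carried OCN-Cre (Cre under the osteocalcin promoter) and the Ai9 reporter, which makes tdTomato after Cre has acted. TgAPPsweOCN;Ai9 mice had in addition a human APPswe transgene, encoding amyloid precursor protein that carries the Swedish mutation, which is made once Cre removes the stop cassette before it. Data from these sorted cells are described with n = 3 mice, but no source used here ties each library to 1 mouse, so p-values measure the spread between these libraries, which may be partly technical.

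Heat-shock proteins are molecular chaperones that bind unfolded segments of other proteins and help them to fold, to stay soluble or to be degraded. HSP70 proteins work in cycles of ATP hydrolysis, in which J-domain (HSP40) proteins deliver clients and start hydrolysis, nucleotide exchange factors such as HSP110 release them, and HSP90 takes over part of the clients, among them kinases and hormone receptors. In mitochondria, HSP60 forms a folding chamber for imported proteins that is closed by HSP10. In unstressed cells HSF1 is held inactive by chaperones. Once misfolded proteins draw these chaperones away, HSF1 forms trimers, enters the nucleus and binds heat-shock elements, which are repeats of the letters GAA and their complement TTC in alternating orientation, so that HSF1 activity rises largely without a rise of its own transcript. The comparison asks which transcripts differ with the APPswe transgene. Stress genes, Hspa2 and HSP90 genes such as Hsp90aa1 among them, were one group the study looked at, also by RT-PCR. Heat-shock transcripts of the cytosol and mitochondria are set beside those of the endoplasmic reticulum (ER) here.

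To show what the promoters of these genes hold, windows of 300 bases around transcription start sites (RefSeq, mouse build GRCm38.p6, the build named mm10 in the submitters' processing notes) were searched on both strands for a pair of inverted heat-shock units, GAANNTTC or TTCNNGAA. Each window ran from 250 bases before the start to 50 bases after it. Of 32851 windows, 15.1% held at least 1 such pair and 0.603% held overlapping pairs in both orders, so a single match is common in any promoter. Windows were found for 6 of the 10 genes. The 250 bases upstream of Hspa1a (chr17:34972157-34972406, minus strand) are shown whole because this inducible HSP70 gene is the textbook target of HSF1. The match is in capitals and begins at position -104 from the start site.
Hspa1a: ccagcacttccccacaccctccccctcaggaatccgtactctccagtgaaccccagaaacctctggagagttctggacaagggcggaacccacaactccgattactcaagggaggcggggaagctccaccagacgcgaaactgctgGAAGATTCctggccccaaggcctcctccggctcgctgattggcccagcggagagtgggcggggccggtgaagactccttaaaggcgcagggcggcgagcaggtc
Hspa1b, the neighbouring copy, had the same match at the same place, and its 250 upstream bases differed from those of Hspa1a at 3 positions. The stretches of 30 bases below carry the other matches, again in capitals and read 5′ to 3′ on the minus strand. That of Hspd1 (chr1:55088053-55088082) holds 3 overlapping pairs, lies before an alternative start of Hspd1, inside the annotated gene, and faces Hspe1, the HSP10 gene transcribed the other way, whose own window holds the same letters. For Hsph1 the first stretch (chr5:149636351-149636380) lies before alternative starts and the other (chr5:149636277-149636306), with 2 overlapping pairs, lies just after them, and both are inside the annotated gene.
Hspd1: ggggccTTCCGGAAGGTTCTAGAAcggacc
Hsph1, upstream: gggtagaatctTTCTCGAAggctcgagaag
Hsph1, downstream: tgcagaTTCTGGAAAGTTCtcctcagtagg
The windows of Dnajb1 did not hold these letters, nor did the window at the annotated gene start of Hspd1. Hspa2 had a window only at an alternative start inside the annotated gene, which did not hold them either. Its annotated gene start was not searched. A match is a description of the sequence and does not show binding.

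Each control library held 19340810 to 19801060 deposited estimated counts and each TgAPPsweOCN;Ai9 library 21677461 to 22037840, and 3 counts, taken as the lowest detectable level, equalled 0.136 to 0.155 CPM (counts scaled to the library total), which covers counting error only. App, whose single entry cannot separate human from mouse transcripts, had a log2 fold change of 0.45 (edgeR adjusted p = 7.87e-05). Markers of myeloid cells had a far higher median than those of the osteoblast lineage, which goes against the name OB progenitors, so the cells are called sorted cells here. Stromal and osteoblast-lineage markers (15 genes) had a median FPKM (fragments scaled by transcript length and by all mapped fragments) of 1.62 to 2.13 in control and 1.47 to 4.04 in TgAPPsweOCN;Ai9 libraries. The highest of them in control were the matrix genes Sparc (mean 83.5 FPKM), Col1a2 (53), Col1a1 (45.5) and Col3a1 (11.6) and the chemokine gene Cxcl12 (31.7), whereas Bglap, which encodes osteocalcin, had too few counts to be tested (0.857 ± 0.461 and 0.273 ± 0.25 FPKM, mean ± SD, n = 3 each). Myeloid markers (15 genes) had medians of 546.6 to 573.1 and 490.8 to 530.4 FPKM, respectively, and none of these genes was at 0. Their summed FPKM was 23789 to 25509 in control and 18868 to 22602 in TgAPPsweOCN;Ai9 libraries, with 6 of the 15 raised (40%) and 7 lowered (46.7%) by an edgeR adjusted p at or below 0.05, beside 32.5% raised and 31.5% lowered of all tested genes. For the stromal list the sums were 220.6 to 265.3 and 172 to 251.4, with 4 of 14 tested genes raised (28.6%) and 3 lowered (21.4%). Of the other marker lists, which have too few tested genes to set their shares beside these, neutrophil markers had 1 of 7 tested genes raised, lymphoid markers 1 of 2, and endothelial markers 1 of 4 raised and 1 lowered. In such bulk samples fewer cells of a type and less RNA per cell cannot be told apart, and the part of these cells in the results below was not tested.

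Measured per length, the heat-shock transcripts of the sorted cells spanned a wide range of levels. Hspa8, which encodes HSC70, the constitutive HSP70 of the cytosol, was by far the highest, with an FPKM of 999.72, 979.72 and 991.27 in the control libraries, and a mean above that of 99.8% of the genes in the table. It was followed in control by Hsp90ab1 (mean 449.9 FPKM), Hsp90aa1 (113.3), Hspd1 (50.2), Hsf1 (24.4), Dnajb1 (13.8), Hsph1 (13.1), Hspa2 (2.30), Hspa1b (1.73) and Hspa1a (1.02). No neighbours in this order overlapped between control libraries. The heat-inducible HSP70 genes Hspa1a and Hspa1b thus stood lowest, at percentiles 37.6 and 41.3 of the genes in the table. In TgAPPsweOCN;Ai9 libraries, Hsph1 (14.32 to 16.6 FPKM) had a higher mean than Dnajb1 (13.78 to 14.92) but lay below it in replicate 2, and the ranges of this pair overlapped, as did those of Hspa1b (1.67 to 2.33) and Hspa1a (1.16 to 1.75). The FPKM of the 10 genes together was 1660 ± 17.9 in control and 2126 ± 12.1 in TgAPPsweOCN;Ai9 cells (mean ± SD, n = 3), without overlap between the genotypes (exact permutation test, p = 0.1, two-sided, which is the lowest value possible with 3 libraries on each side). Here and below, the share of all genes without overlap was not counted. A lack of overlap therefore cannot be called particular to these genes.

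**Figure D1:**
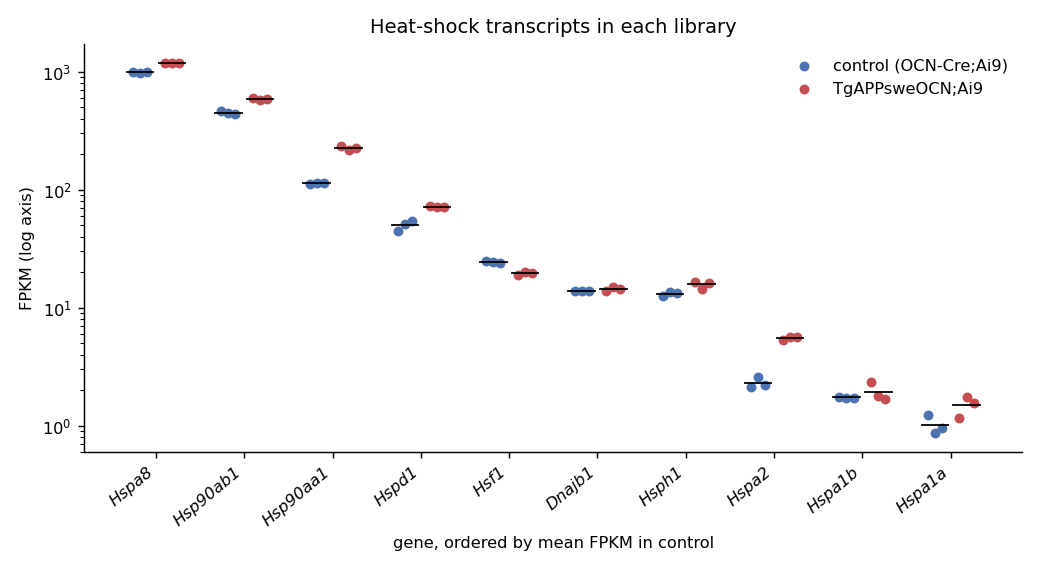
FPKM (log axis) of the 10 heat-shock genes in each of the 3 control (blue) and 3 TgAPPsweOCN;Ai9 (red) libraries, with the mean of each genotype as a line. Hspa8 lies near 1000 FPKM and Hspa1a near 1 FPKM, and the red points lie above all blue points for Hspa8, Hsp90ab1, Hsp90aa1, Hspd1, Hsph1 and Hspa2 and below them for Hsf1. The share of all genes that separate in this way was not counted.

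Most of these transcripts were increased in the sorted TgAPPsweOCN;Ai9 cells. With edgeR and TMM normalization, 8 of the 10 genes were raised (Benjamini-Hochberg adjusted p at or below 0.05 over all 12701 tested genes), beside 32.5% of all tested genes. Hspa1b and Hsf1 did not pass. No member was lowered with edgeR, whether by adjusted p or by an unadjusted p of 0.05, nor with DESeq2, beside 31.5% of all tested genes. With an additional log2 fold change of at least 1, Hsp90aa1 and Hspa2 were up-regulated (8.9% of all tested genes were), and none of the 10 was down-regulated under any alternative (9.2% of all tested genes were in the main comparison). The median log2 fold change was 0.54 over the 10 genes and -0.02 over all tested genes.

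The scaling of the libraries mattered for the smaller changes. TMM factors were 1.073 to 1.081 in control and 0.9099 to 0.9439 in TgAPPsweOCN;Ai9 libraries, and scaling by library size only moved the median log2 fold change of all genes to -0.23, with 32.5% in place of 50.7% of all called genes being raised. Then 6 of the 10 genes were raised (22.1% of all tested genes were) and 1, Hsf1, was lowered (45.9% of all tested genes were). FPKM values carry no TMM factors, and limma on log2(FPKM + 1), where the median of all genes was -0.16, called 7 raised (22.3% of all tested genes were) and Hsf1 lowered (45.1% of all tested genes were). Another scaling of the libraries shifts all genes by nearly the same amount, so changes relative to the median of all genes hardly depend on it by construction. With TMM they were 1.22 for Hsp90aa1, 0.29 for Dnajb1 and -0.08 for Hsf1.

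**Figure D2:**
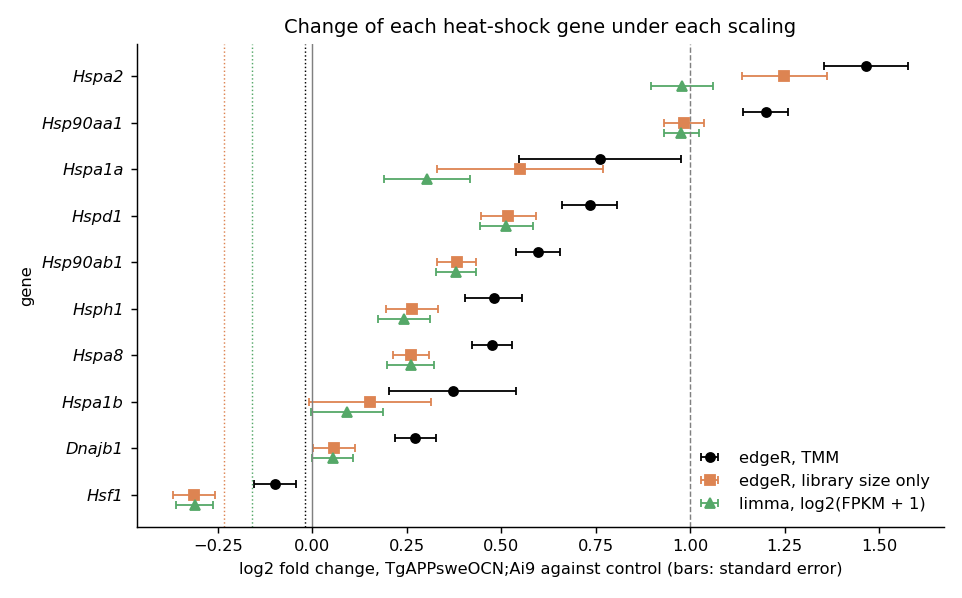
Log2 fold change of each heat-shock gene (bars, standard error) with edgeR and TMM (black), edgeR with library size only (orange) and limma on log2(FPKM + 1) (green), with dotted lines at the median of all genes under each scaling and a dashed line at the fold threshold of 1. Hsp90aa1 lies at 1.20, 0.98 and 0.98, and Dnajb1 at 0.27, 0.06 and 0.05.

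HSP90 is an abundant cytosolic chaperone encoded by a stress-responsive gene, Hsp90aa1, and a largely constitutive gene, Hsp90ab1. Hsp90aa1 (Entrez identifier 15519, chr12:110691036-110696395) had an FPKM of 112.35, 113.4 and 114.05 in control and 233.03, 215.23 and 223.24 in TgAPPsweOCN;Ai9 libraries. The control libraries were nearly equal and all lay far below every TgAPPsweOCN;Ai9 library. Its log2 fold change was 1.20 (standard error 0.0601, edgeR adjusted p = 8.47e-07), 2.30-fold, and remained past an adjusted p of 0.05 under every alternative, with values from 0.98 to 1.24. With library size only (0.98) and in limma on log2(FPKM + 1) or log2(FPKM + 0.1) (0.98 in both) it lay below the fold threshold. Hsp90ab1 (Entrez identifier 15516, chr17:45567778-45573261) had an FPKM of 466.21, 443.28 and 440.29 in control and 595.17, 578.51 and 584.53 in TgAPPsweOCN;Ai9 libraries, again without overlap. Its rise was 0.60 on the log2 scale (standard error 0.0576, edgeR adjusted p = 3.22e-05) and 0.38 with library size only.

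The more strongly raised HSP90 gene was the less abundant one, so the make-up of HSP90 transcripts differed. Hsp90aa1 made up 19.42%, 20.37% and 20.57% of the FPKM of both genes in control and 28.14%, 27.12% and 27.64% in TgAPPsweOCN;Ai9 libraries. The log2 ratio of Hsp90aa1 to Hsp90ab1 counts, which does not depend on the scaling of libraries, was higher by 0.60 (control -1.80 ± 0.0556, TgAPPsweOCN;Ai9 -1.20 ± 0.0368, mean ± SD, n = 3; exact permutation test, two-sided p = 0.1), without overlap. No stretch of 100 bases was shared by the reference transcripts of these genes, and neither had fractional counts.

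Among the HSP70 genes, Hspa8 (Entrez identifier 15481, chr9:40801276-40805202) rose from the high control level given above to an FPKM of 1174.56, 1188.73 and 1194.3 in the TgAPPsweOCN;Ai9 libraries, without overlap. The log2 fold change was 0.48 (standard error 0.0525, edgeR adjusted p = 7.14e-05), and 0.26 with library size only (adjusted p = 0.0015). Hspa8 gave 99.5% ± 0.0175 of the FPKM of the 4 HSP70 genes Hspa8, Hspa2, Hspa1a and Hspa1b in control and 99.3% ± 0.0138 in TgAPPsweOCN;Ai9 cells. In FPKM, the difference between the genotype means of Hspa8 was larger than the whole level of the other 3 genes.

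Hspa2, an HSP70 gene best known for its role in male germ cells, had the largest log2 fold change of the 10 genes. Its FPKM was 2.11, 2.6 and 2.2 in control and 5.32, 5.59 and 5.59 in TgAPPsweOCN;Ai9 libraries, from 103 to 129 and 292 to 304 estimated counts. The genotypes were far apart and the TgAPPsweOCN;Ai9 libraries nearly equal. The log2 fold change of Hspa2 (Entrez identifier 15512, chr12:76403812-76406938) was 1.46 (standard error 0.111, edgeR adjusted p = 8.01e-06), 1.25 with library size only, 1.23 in limma on log2(FPKM + 0.1) and 0.98, below the fold threshold, in limma on log2(FPKM + 1). The log2 ratio of Hspa2 to Hspa8 counts was higher by 0.996 (control -8.46 ± 0.179, TgAPPsweOCN;Ai9 -7.47 ± 0.028; exact permutation test, two-sided p = 0.1, n = 3 each), without overlap between the genotypes.

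Hspa1a and Hspa1b are adjacent, nearly identical genes whose mRNAs are scarce in unstressed cells and rise steeply upon heat. Of all stretches of 100 bases in their reference transcripts, 47.1% for Hspa1a and 49.9% for Hspa1b also occur in the other gene, and both had fractional estimated counts in all 6 libraries, so the division of reads between them is uncertain. Hspa1a (Entrez identifier 193740, chr17:34969359-34972156) had 66.7, 46.6 and 50.4 estimated counts in control and 70.1, 104.8 and 92.7 in TgAPPsweOCN;Ai9 libraries. Its log2 fold change was 0.76 (standard error 0.215, edgeR adjusted p = 0.0131). This call was lost with library size only (0.55, adjusted p = 0.054), in limma on log2(FPKM + 0.1) (0.51, adjusted p = 0.0506) and without control replicate 3 (0.70, adjusted p = 0.053). In FPKM the genotypes overlapped, at 0.86 to 1.24 in control and 1.16 to 1.75 in TgAPPsweOCN;Ai9 libraries.

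Hspa1b (Entrez identifier 15511, chr17:34956429-34959238) had 94.8, 92.8 and 91.7 estimated counts in control and 140.8, 107.1 and 99.6 in TgAPPsweOCN;Ai9 libraries. TgAPPsweOCN;Ai9 replicate 1 stood above the others here and was the lowest of its genotype for Hspa1a. The log2 fold change of 0.37 (standard error 0.168, edgeR adjusted p = 0.0829) was not past the threshold, and was 0.15 with library size only (adjusted p = 0.42). Summed, the pair had 161.5, 139.4 and 142 estimated counts in control and 210.9, 211.9 and 192.2 in TgAPPsweOCN;Ai9 libraries. The sum does not depend on how reads were divided between the copies, and its log2 fold change was 0.53 (standard error 0.112, edgeR adjusted p = 0.00293). The log2 ratio of Hspa1b to Hspa1a counts was 0.79 ± 0.253 in control and 0.38 ± 0.543 in TgAPPsweOCN;Ai9 libraries, with overlap (exact permutation test, two-sided p = 0.4, n = 3 each).

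**Figure D3:**
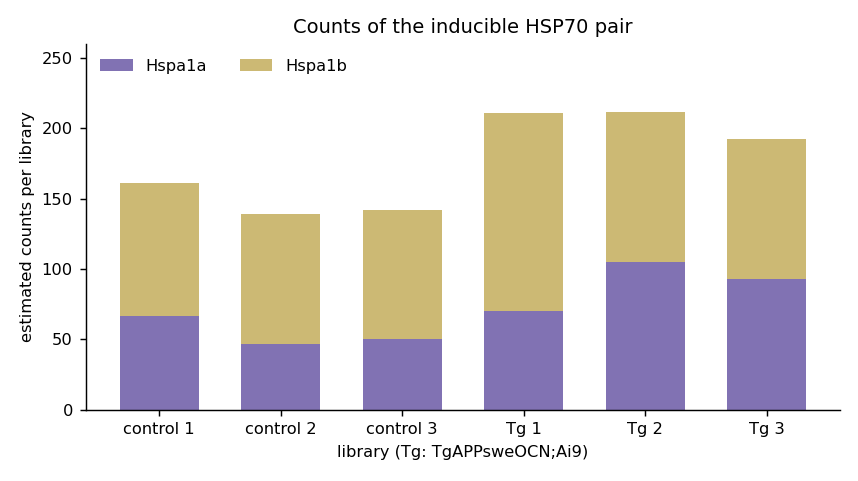
Estimated counts of Hspa1a (purple) and Hspa1b (yellow), stacked, in each control and TgAPPsweOCN;Ai9 (Tg) library. The summed bars reach 139.4 to 161.5 in control and 192.2 to 211.9 in TgAPPsweOCN;Ai9 libraries, whereas the part given to Hspa1a varies from 46.6 to 66.7 and from 70.1 to 104.8.

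Both partners of HSP70 among the 10 genes were raised, by less than Hsp90aa1. Hsph1 (Entrez identifier 15505, chr5:149616843-149636498) encodes HSP105 of the HSP110 family, a nucleotide exchange factor that also holds unfolded proteins by itself. Its FPKM was 12.65, 13.54 and 13.18 in control and 16.6, 14.32 and 16.29 in TgAPPsweOCN;Ai9 libraries, and no library of one genotype reached the other. The log2 fold change was 0.48 (standard error 0.0753, edgeR adjusted p = 0.000571), and 0.26 with library size only (adjusted p = 0.00922). It was of the size of that of Hspa8, and the log2 ratio of Hsph1 to Hspa8 counts was -5.54 ± 0.0824 in control and -5.54 ± 0.103 in TgAPPsweOCN;Ai9 libraries (exact permutation test, two-sided p = 1, n = 3 each).

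Dnajb1 (Entrez identifier 81489, chr8:83608175-83612653) encodes the J-domain protein HSP40, which is induced together with HSP70 upon heat. In FPKM it was 13.71, 13.78 and 13.84 in control and 13.78, 14.92 and 14.34 in TgAPPsweOCN;Ai9 libraries, so the lowest TgAPPsweOCN;Ai9 library lay within the control range. After TMM normalization it was 37.6 to 37.8 CPM in control and 44.6 to 46.6 CPM in TgAPPsweOCN;Ai9 libraries, without overlap. The log2 fold change was 0.27 (standard error 0.0534, edgeR adjusted p = 0.00203), the smallest of the raised members, and its call was lost with library size only (0.06, adjusted p = 0.377) and in limma on log2(FPKM + 1) (0.05, adjusted p = 0.404).

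In the mitochondrial arm, Hspd1 (Entrez identifier 15510, chr1:55077833-55088243), which encodes HSP60, had an FPKM of 44.98, 51.25 and 54.43 in control and 72.4, 71.38 and 71.88 in TgAPPsweOCN;Ai9 libraries. Control replicate 1 was the lowest, and the TgAPPsweOCN;Ai9 libraries were within a narrow range above all controls. The rise was 0.73 on the log2 scale (standard error 0.0731, edgeR adjusted p = 3.87e-05) and 0.52 with library size only. Hspe1 (chr1:55088148-55091317), which encodes HSP10, the lid of the HSP60 chamber, and shares the region with 3 overlapping heat-shock letter pairs printed above, had 69.68, 61.67 and 59.18 FPKM in control and 70.29, 74.01 and 64.28 in TgAPPsweOCN;Ai9 libraries, with overlap. Its log2 fold change of 0.35 (edgeR adjusted p = 0.00584) was 0.13 with library size only (adjusted p = 0.185). Hspa9, which encodes mortalin, the mitochondrial HSP70, rose from 64.5 ± 1.48 to 89.9 ± 2.04 FPKM (n = 3), a log2 fold change of 0.69 (edgeR adjusted p = 1.01e-05).

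Hsf1 itself was not raised. Hsf1 (Entrez identifier 15499, chr15:76477362-76501155) had an FPKM of 24.9, 24.57 and 23.71 in control and 18.9, 19.93 and 19.58 in TgAPPsweOCN;Ai9 libraries, so all TgAPPsweOCN;Ai9 libraries lay below all controls. After TMM normalization the gap was small, at 44.7 to 47.8 CPM in control and 43.2 to 43.6 CPM in TgAPPsweOCN;Ai9 libraries. The log2 fold change was -0.10 (standard error 0.0552, edgeR adjusted p = 0.15), while library size only gave -0.31 (adjusted p = 0.00112) and limma on log2(FPKM + 1) gave -0.31 (adjusted p = 0.000806). Against the median of all genes, the limma value was -0.15. Hsf1 was the only member with a log2 fold change below 0, under TMM and under these alternatives.

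Of the other 3 tested genes of the HSF family and its regulators, only Hsbp1, which encodes a small protein that binds HSF1 trimers and dampens their activity, was raised, from 111.4 ± 2.64 to 152 ± 5.8 FPKM (log2 fold change 0.66, edgeR adjusted p = 9.51e-06). Hsf2, a further HSF gene, had 0.20 (adjusted p = 0.072), and -0.02 with library size only. Hsf4, known from the lens, had 0.03 (adjusted p = 0.907), with estimates on both sides of 0 over the alternatives, and Hsf5 and Hsbp1l1 had too few counts to be tested.

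The genes whose log2 CPM over the 6 libraries was most like that of Hsf1, by Pearson correlation over the 11866 genes that had 10 counts or more in all libraries, were Fbxl8 (r = 0.998), Slc9a3r2 (0.991), Gpatch11 (0.989), Taf1c (0.987) and Zbtb12 (0.9865), and 88 genes were above 0.95. For Hsp90aa1 they were Tlr1, Pim2, Sod2, Gatad1 and Mtdh, all at 0.9998 or 0.9999, and 2406 genes were above 0.95. These correlations are a description. The 6 points share the contrast of the genotypes and the scaling, so any gene that is clearly raised with little spread correlates highly with Hsp90aa1.

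**Figure D4:**
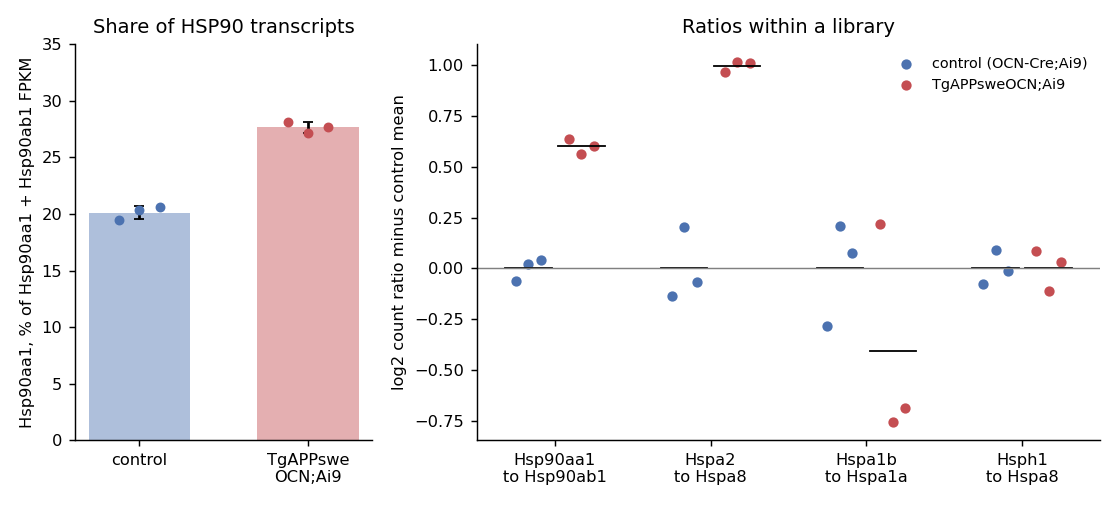
Left, Hsp90aa1 as a percentage of the FPKM of both cytosolic HSP90 genes (bars, mean; error bars, SD; points, libraries). Right, log2 count ratios of 4 gene pairs in each library after subtraction of the control mean, with the mean of each genotype as a line. The ratios of Hsp90aa1 to Hsp90ab1 and of Hspa2 to Hspa8 do not overlap between the genotypes, whereas those of Hspa1b to Hspa1a and of Hsph1 to Hspa8 do.

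To place these genes in the wider chaperone network, 8 lists of other chaperones and co-chaperones were followed, which together held 105 tested genes. Of these, 49 were raised (46.7%, beside 32.5% of all tested genes) and 18 lowered (17.1%, beside 31.5%), their median log2 fold change was 0.20, and 3 were up-regulated by the fold rule: Dnajc2, Dnaja1 and Hspa12a. With library size only, 34 were raised (32.4%, beside 22.1% of all tested genes) and 32 lowered (30.5%, beside 45.9%), with a median of -0.01. The same shares of all tested genes apply to each list below.

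All 8 tested subunits of TRiC, the chaperonin ring that folds actin and tubulin, were raised. Of the 6 tested subunits of prefoldin, which feeds it, 3 were raised, 1 was lowered and 2 did not pass. Together they had a median log2 fold change of 0.71 (0.49 with library size only). The highest was Cct3, a TRiC subunit, which rose from 54 ± 0.881 to 89.5 ± 2.97 FPKM (log2 fold change 0.94, edgeR adjusted p = 2.47e-06), and the lowered gene was Pfdn5, a prefoldin subunit (-0.30, adjusted p = 0.00963). Of 7 genes listed as other cytosolic HSP70 and HSP110 genes, 4 were raised and 0 lowered by edgeR. The lowered count was 0 also at an unadjusted p of 0.05 and with DESeq2, and 1 with limma on FPKM. Hspa13, among the raised genes (0.72, edgeR adjusted p = 7.9e-05), encodes a microsomal protein and not a cytosolic one. Hspa4, an HSP110 gene like Hsph1, rose from 48 ± 1.58 to 58.8 ± 1.02 FPKM (0.51, adjusted p = 6.79e-05). Hspa12a, a distant HSP70 relative, was up-regulated (1.24, adjusted p = 0.005) but from only 8 to 23 counts per library. It was not tested when 10 counts in every library were required, and its call was lost in limma on log2(FPKM + 1) (0.11, adjusted p = 0.0896). Hspa1l, which lies beside Hspa1a and had fractional counts, was at -0.22 (adjusted p = 0.398).

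J-domain genes and exchange factors were raised in shares near that of all tested genes. Of 23 other J-domain genes, 9 (39.1%) were raised and 3 (13%) lowered, with a median log2 fold change of 0.07. With library size only, 6 (26.1%) were raised and 8 (34.8%) lowered, and the median was -0.15. Dnajc2, which encodes a J-domain protein that works at the ribosome, rose from 17.4 ± 1.25 to 38.9 ± 0.633 FPKM (1.37, edgeR adjusted p = 6.86e-07). Dnaja1, a cytosolic J-domain gene of another class than Dnajb1, had an FPKM of 33.94, 36.22 and 34.12 in control and 72.37, 73.22 and 69.51 in TgAPPsweOCN;Ai9 libraries (1.26, adjusted p = 4.26e-07). The lowest was Dnajb13, a low-count gene with 7 to 23 counts per library (-0.91, adjusted p = 0.0341). Its call was lost with DESeq2 (adjusted p = 0.144) and with the filter of 1 count in any library (adjusted p = 0.0505). It was lost too when any 1 of the 3 control libraries, TgAPPsweOCN;Ai9 replicate 2 or TgAPPsweOCN;Ai9 replicate 3 was left out (adjusted p from 0.0576 to 0.122). HSP70 nucleotide exchange factors and partners had 4 of 11 raised (36.4%) and 2 lowered (18.2%), and 6 lowered with library size only (54.5%). They ranged from St13, which encodes the HSP70-binding protein Hip (0.72, adjusted p = 4.76e-06), to Bag2, which encodes an exchange factor (-0.94, adjusted p = 0.00148). The heat-inducible exchange factor gene Bag3 had 35.16, 53.79 and 46.08 FPKM in control and 33.33, 35.34 and 34.98 in TgAPPsweOCN;Ai9 libraries. Its log2 fold change was -0.17 (adjusted p = 0.297), and -0.02 without control replicate 2 (adjusted p = 0.877). Bag3 was lowered without control replicate 1 (-0.32, adjusted p = 0.008) and with library size only (-0.38, adjusted p = 0.0344). It was lowered also in limma on log2(FPKM + 1) (-0.35, adjusted p = 0.0481) or log2(FPKM + 0.1) (-0.36, adjusted p = 0.0459). Control replicate 1 was the control library that lay among the TgAPPsweOCN;Ai9 values.

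HSP90 co-chaperones had 11 of 22 genes raised (50%) and 5 lowered (22.7%), and with library size only 6 raised (27.3%) and 7 lowered (31.8%). Stip1, which encodes Hop, the bridge between HSP70 and HSP90, rose from 57 ± 1.87 to 76 ± 3.63 FPKM (log2 fold change 0.63, edgeR adjusted p = 4.4e-05), next to Nudcd2 (0.63), the highest of the list. Fkbp4, the immunophilin FKBP52 of hormone receptor complexes, fell from 32.4 ± 2.12 to 19.1 ± 0.856 FPKM (-0.55, adjusted p = 0.000207). Of 7 tested genes named as small heat-shock proteins, most of which hold unfolded proteins without ATP, 4 were lowered and 0 raised by edgeR. The raised count was 0 also at an unadjusted p of 0.05, with DESeq2 and with limma, and the median log2 fold change was -0.62. Hspb11, among the lowered genes (-0.62, edgeR adjusted p = 0.0102), bears the name but encodes an intraflagellar transport protein. Hspb1, which encodes HSP27 and is itself heat-inducible, fell from 15 ± 2.25 to 6.92 ± 1.68 FPKM (-0.90, adjusted p = 0.00233). Hspb7 had 0.70 (adjusted p = 0.312), 0.12, 0.93 and 0.5 FPKM in the TgAPPsweOCN;Ai9 libraries, and was 1.16 (adjusted p = 0.0156) without TgAPPsweOCN;Ai9 replicate 1 and -0.03 (adjusted p = 0.965) without TgAPPsweOCN;Ai9 replicate 2. Mitochondrial chaperones and proteases had 9 of 18 raised (50%) and 3 lowered (16.7%), and with library size only 5 raised (27.8%) and 6 lowered (33.3%), with Hspa9 the highest and Hscb, a J-domain gene of iron-sulfur cluster assembly, the lowest (-0.77, adjusted p = 0.00148).

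**Figure D5:**
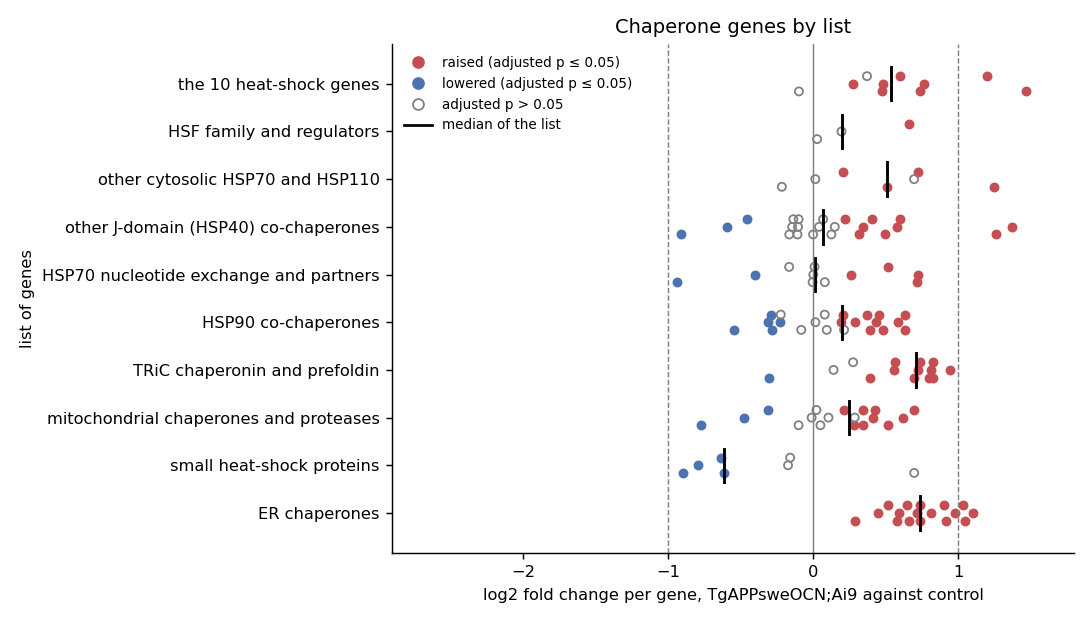
Log2 fold change of each tested gene, by list, with genes past an adjusted p of 0.05 in red (raised) or blue (lowered), others open, and the median of the list as a black line. Dashed lines mark the fold threshold of 1. Medians lie at 0.54 for the 10 heat-shock genes, 0.71 for TRiC and prefoldin, 0.74 for ER chaperones and -0.62 for small heat-shock proteins.

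All 17 ER chaperones were raised by edgeR (16 with library size only). By the fold rule 3 were up-regulated, Pdia6, Canx and P4hb (0 with library size only or with limma), the median log2 fold change was 0.74, and none was lowered (0 also at an unadjusted p of 0.05 and by DESeq2 or limma). Hspa5, which encodes the ER HSP70 GRP78, had a log2 fold change of 0.71, between those of Hspa8 (0.48) and Hspa2 (1.46), and Hsp90b1, which encodes the ER HSP90 GRP94, had 0.44, below those of Hsp90ab1 (0.60) and Hsp90aa1 (1.20). These differences between genes were not tested. A mixed list of 14 other stress genes, most of them heat-responsive, also held Rbm3 and Cirbp, which are induced by cold, and Tfrc, which is best known for its control by iron. Of these 14, 9 were raised (64.3%, beside 32.5% of all tested genes) and 4 lowered (28.6%, beside 31.5%), with a median of 0.31, and with library size only 6 were raised (42.9%) and 5 lowered (35.7%). Rbm3 (0.32) and Tfrc (0.76) were among the raised genes and Cirbp (-1.04) among the lowered ones. The call of Rbm3 was lost with library size only (0.11, adjusted p = 0.0661). Immediate-early genes, which respond to the handling and digestion of cells, went with genotype too. Of 21, 13 were lowered (61.9%, beside 31.5% of all tested genes) and 2 raised (9.52%, beside 32.5%). The median log2 fold change was -0.80, and their summed FPKM was 1727 to 2321 in control and 1155 to 1341 in TgAPPsweOCN;Ai9 libraries. Their part in the heat-shock results was not tested.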

How the data were processed

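RNA-seq was measured in 3 control (OCN-Cre;Ai9) and 3 TgAPPsweOCN;Ai9 libraries of tdTomato+ cells, sorted after 7 days of culture, a passage and a further 3 days. Per the study's methods, samples with an RNA integrity number (RIN) above 2 qualified. The authors sequenced on a DNBSEQ platform and mapped clean reads with HISAT2. The submitters' processing notes name the build mm10, HISAT2 2.0.4, Bowtie2 2.2.5, RSEM 1.2.12 and DESeq2 1.4.5. The authors deposited estimated counts (13.3% to 14.4% of genes fractional per library) and FPKM values. A further table with the authors' own fold changes and p-values was not used here.

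Raw counts had been planned for, so the estimated counts were rounded before the test. Genotypes were compared by edgeR 4.0.16 in R 4.3.3 (filterByExpr, TMM, quasi-likelihood test, no replicate block, Benjamini-Hochberg adjustment over 12701 genes, biological coefficient of variation 9.85%). Raised or lowered means an adjusted p at or below 0.05, and the fold rule adds a log2 fold change of 1 or more, up or down. Log2 CPM used a prior count of 2. Pairs of libraries of 1 genotype differed by a mean chi-square per gene of 4.54 to 25.9, so none was a duplicate. Replicate numbers did not pair the libraries (correlations of deviations 0.0127, 0.00664 and 0.141). On simulated data edgeR called 182 of 198 changed genes in the right direction and 12 unchanged genes of 12670. Single ratios were compared with exact permutation tests. Alternatives were DESeq2 1.42.0, RLE size factors, library size only, 2 filters on low counts (1 count in any library, 10 in every library), a replicate block, limma 3.58.1 on log2 FPKM (pseudocount 1 or 0.1), Hspa1a and Hspa1b summed, and leaving out each library. Tables and plots used Python 3.11.15, numpy 2.4.6, pandas 2.3.3, scipy 1.17.1 and matplotlib 3.10.9. Promoter windows and gene positions came from RefSeq.

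The members and the lists were chosen with earlier results of these data known. The text names all 10 members and, from 8 lists of chaperones and co-chaperones, the gene with the highest and that with the lowest log2 fold change, genes past the fold rule, and fixed partners (Hspe1, Hspa9, Hspa4, Dnaja1, Bag3, Stip1, Hspb1, Hsf2, Hspa5 and Hsp90b1). It also names the 5 genes most like Hsf1 and Hsp90aa1. App, Hsf5, Hsbp1l1, Hspa13 and Hspb11 lie outside this rule. So do the stromal genes Bglap, Sparc, Col1a1, Col1a2, Col3a1 and Cxcl12, the ER genes Pdia6, Canx and P4hb, and Rbm3, Cirbp and Tfrc. All of these but App were chosen after their values were seen.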

Additional observations from a re-analysis of the deposited data

How the results depend on the processing

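The same 8 members were raised, and the same 2 past the fold rule, with DESeq2, RLE size factors and both filters on low counts. Of all tested genes, 23.6% were raised with DESeq2 and 33% with RLE size factors. With the filters of 1 count in any library and 10 in every library, 24.1% and 32.4% were. In the main comparison 8.9% of all tested genes were up-regulated by the fold rule. With Hspa1a and Hspa1b summed to 1 entry, that entry and the other 7 were raised, of 9 (32.5% of all tested genes were). Settings without TMM factors moved these counts. With library size only, 6 members were raised, 1 was lowered and 1 was up-regulated, and of the other chaperone genes 32 were lowered (30.5%, beside 45.9% of all tested genes) and 4 were down-regulated, against 18 and 0. Limma on log2(FPKM + 1) lowered 1 member and left 0 up-regulated, with 34 other chaperone genes lowered (32.4%, beside 45.1% of all tested genes) and 1 down-regulated. With a pseudocount of 0.1, it lowered 1 member and up-regulated 1. Of the other chaperone genes, 34 were then lowered (32.4%, beside 45.1% of all tested genes) and 4 down-regulated. Leaving out 1 library at a time gave 7 to 8 raised members (28.9% to 31.3% of all tested genes were). It gave 0 to 1 down-regulated other chaperone genes (9.2% of all tested genes were in the main comparison). The 1 was Bag2 without control replicate 1, Hspb1 without control replicate 2 or TgAPPsweOCN;Ai9 replicate 2, and Dnajb13 without TgAPPsweOCN;Ai9 replicate 1.

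Estimates that changed sign were near 0 or unstable. Hsf2 was -0.0208 with library size only. Hsf4 was -0.19 with library size only, -0.11 in limma on log2(FPKM + 1), -0.15 in limma on log2(FPKM + 0.1), and between -0.12 and 0.13 when 1 library was left out. Hspb7 ran from -0.031 to 1.16 when 1 library was left out. The difference in the log2 ratio of Hsph1 to Hspa8, 0.0028, was -0.0006 in FPKM and -0.0396 to 0.06 when 1 library was left out. Of 506 alternative values for 34 named genes, 474 kept their direction and side of the threshold, 17 lost it, 8 gained it and 7 reversed. The cause was not tested.

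With the replicate block, 8 members were raised (31.8% of all tested genes were), 0 lowered (30.7% of all tested genes were) and 2 up-regulated. The log2 fold change of Hsp90aa1 was 1.20, of Hspa2 1.47 and of Hsf1 -0.10. The block changed the count of raised genes from 4122 to 4040 and of lowered genes from 4007 to 3905. It changed no call of the 34 named genes that were followed over the alternatives. The comparison had 3 libraries per genotype. The standard error of the log2 fold change was 0.215 for Hspa1a, 0.168 for Hspa1b and 0.112 for their sum.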
